A study of Mus musculus with 7 samples.

Results

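The E2F transcription factors and the retinoblastoma, or pocket, proteins were followed in C2C12 muscle cells incubated with exosomes from palmitate-treated or control muscle cells. The genes were E2f1, E2f2, E2f3, E2f4, E2f5, E2f7, E2f8, Rb1, Rbl1 and Rbl2. The rule picks probes by gene name, and every array probe carrying one of these names was kept. This gave 13 probes for the 10 genes, of 39429 non-control probes carrying 31829 gene names. E2f3, E2f7 and Rbl1 had 2 probes each.

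E2F proteins bind DNA and set the level of genes needed for DNA replication and cell division. E2F1, E2F2 and E2F3 are known as activators, E2F4 and E2F5 as repressors that work with a pocket protein, and E2F7 and E2F8 as atypical repressors that need neither a pocket protein nor a dimerisation partner. The pocket proteins RB1, RBL1 (p107) and RBL2 (p130) hold E2F in check until cyclin-dependent kinases phosphorylate them. In muscle this pathway is known for the permanent cell cycle exit of myotubes, in which RB1 has a central part.

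C2C12 is an established line of mouse myoblasts that can fuse to form myotubes. The exosomes came from other C2C12 cultures that had been treated with 0.5 mM palmitate (EXO-Palm) or with BSA alone (EXO-BSA, spelt Exo-BSA in the labels), and recipient cells of both groups were incubated with them for 24 h. According to the methods, palmitate was taken away 9 h before the exosomes were harvested, and recipient cells were kept without serum. The labels call all recipient cells myoblasts, whereas the study calls them myotubes, and their cell line entries count up from C2C12 to C2C18 over the 7 samples. RNA from 4 EXO-BSA and 3 EXO-Palm samples, labelled as biological replicates, was hybridised to 1-colour Agilent arrays. The study names only C2C12 as the cell line. Whether they were separate cultures is not stated further, so p-values measure the spread between these samples. Fewer cells expressing a gene and less RNA per cell cannot be told apart in such bulk samples.

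Values are log2 signals relative to the 75th percentile of the same array, so that 0 is a bright probe, a negative value is below it, and a difference of 1 is a doubling. They compare arrays for the same probe only. All 15 muscle differentiation markers examined were well above background on all 7 arrays in the test that the scanner software applies to each spot. Their summed log2 level was 10.09 to 10.34 on EXO-BSA and 9.83 to 10.03 on EXO-Palm arrays. Of the 8 myoblast markers, Myf5 was well above background on no array and Pax3 on 3 arrays, and the summed level was 7.83 to 8.01 with EXO-BSA and 7.06 to 7.57 with EXO-Palm. Both summed levels were lower with EXO-Palm without overlap, and a sum rests on its brightest probes, as with Itga7, which had a mean of 7.66 with EXO-BSA and 6.99 with EXO-Palm. The median differences over the single markers were small, -0.14 for muscle differentiation and -0.08 for myoblast markers. Of the muscle differentiation markers 3 were higher and 12 lower with EXO-Palm, where 47.3% of all tested probes were higher. Their largest falls were Myh8 (-0.65), Myh3 (-0.46) and Myh2 (-0.44), while Myog was at -0.07, Acta1 at -0.08 and Des at 0.50. Of the myoblast markers tested 2 were higher, with Vcam1 at 0.51, and 4 lower, with Itga7 at -0.67. None of the markers passed the test. Their part in the results was not tested. The 9 markers of other cell types on the array had a summed level of -1.81 to -1.18 and -1.55 to -1.23, between 1 and 7 of them were well above background on an array, and Cdh5 and Epcam were well above background on no array. Between 48.5 and 70.3% of probes were well above background on an array, and the 75th percentile lay between 549.4 and 1621. EXO-Palm 2 had the lowest correlations with the other arrays, 0.947 to 0.955. The arrays stood on 4 slides, of which slide 1 held EXO-BSA 1 and 2 with EXO-Palm 1, and slide 3 held EXO-BSA 4 with EXO-Palm 3. EXO-BSA 3 stood alone on slide 2 and EXO-Palm 2 alone on slide 4. A fit with slide as a block therefore takes no part of its group difference from these arrays.

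Sequences upstream of the members are shown first, because E2F genes are themselves known to be controlled through E2F sites. RefSeq promoter windows on GRCm38.p6, from 250 bases before to 50 bases after a start site, were found for 7 of the 10 genes, and those of E2f4, E2f5 and Rb1 were not found. They were searched on both strands for the E2F site letters TTTCCCGC, TTTGGCGC and TTTCGCGC. A match was present in 4 of these 7 genes (57.1%), against 573 of 27025 genes in the whole table (2.12%) and 1.84% of 32851 windows. TTTCCCGC was found in 1.07%, TTTGGCGC in 0.514% and TTTCGCGC in 0.323% of all windows. Rbl1 held TTTCGCGC at -18, E2f7 held TTTCCCGC on the opposite strand at -198, E2f3 held TTTCCCGC on the opposite strand at -11, and E2f2 held TTTGGCGC at 40 bases after the start. The windows of E2f1, E2f8 and Rbl2 held none of these letters, nor did the further windows of E2f2 (chr4:136180532-136180831) and E2f3 (chr13:29984342-29984641). Whether a window holds the start site in use in these cells was not tested, so a missing match describes that window only. The E2f1 window and the further E2f2 window hold letters that read as coding sequence of these genes. Their content is therefore not read as that of a promoter, although E2f1 is counted among the 7 genes. No match shared bases with a match of the CHR element TTTGAA, a motif of the MuvB complex. The 250 upstream bases of Rbl1, E2f7 and E2f3 are printed 5′ to 3′ on the strand of the gene with the E2F letters in capitals, since these 3 genes have a match before the start. They lie at chr2:157204535-157204784 (minus strand), chr10:110745189-110745438 (plus strand) and chr13:29986064-29986313 (minus strand).
Rbl1: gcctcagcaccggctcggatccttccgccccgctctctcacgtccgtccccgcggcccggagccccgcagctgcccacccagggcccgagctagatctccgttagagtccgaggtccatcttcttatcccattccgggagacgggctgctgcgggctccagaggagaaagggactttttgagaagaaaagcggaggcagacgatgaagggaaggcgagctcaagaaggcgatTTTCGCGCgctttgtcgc
E2f7: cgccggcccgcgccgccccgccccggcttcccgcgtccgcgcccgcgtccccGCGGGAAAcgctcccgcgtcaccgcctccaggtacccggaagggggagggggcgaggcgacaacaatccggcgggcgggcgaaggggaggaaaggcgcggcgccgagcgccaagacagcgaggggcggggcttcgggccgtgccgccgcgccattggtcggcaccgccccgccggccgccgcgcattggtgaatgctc
E2f3: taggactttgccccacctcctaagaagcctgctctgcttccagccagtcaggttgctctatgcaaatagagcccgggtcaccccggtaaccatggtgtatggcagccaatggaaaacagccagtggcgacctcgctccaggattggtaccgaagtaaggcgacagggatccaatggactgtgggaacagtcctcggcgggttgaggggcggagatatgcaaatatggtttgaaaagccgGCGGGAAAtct
A match is a description of the letters, and binding was not measured.

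None of the 13 probes passed the threshold of a limma adjusted p under 0.05, where 0.533% of the 21589 tested probes did. All 13 had passed the probe filter, and 11 of them were well above background on all 7 arrays. The fitted difference was positive, that is higher with EXO-Palm, for 5 probes and negative for 8. At an unadjusted p under 0.05, 3 probes (23.1%) were higher with EXO-Palm, against 4.85% of all tested probes, and none was lower, against 5.19%. These 3 were E2f1, the more distal E2f7 probe and the Rbl1 probe for transcript variant 1. The EXO-BSA and EXO-Palm arrays did not overlap for 2 probes (15.4%), E2f1 and Rb1, against 11.2% of probes measured on all arrays. E2f1 was the only 1 of the 13 that lay higher without overlap, as did 5.44% of those probes. The count of 3 was 1 with slide as a block, 1 without EXO-Palm 2 and 0 without EXO-Palm 3. It also depended on the normalisation, with 0 higher and 1 lower with normexp and quantile normalisation, 1 and 1 with the authors' processed values, 2 and 1 with the median in place of the 75th percentile, and 3 and 1 with quantile normalisation alone. The lower probe in these 4 was that of E2f4. No probe of the family passed the adjusted threshold in any of the 18 other settings.

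**Figure D1:**
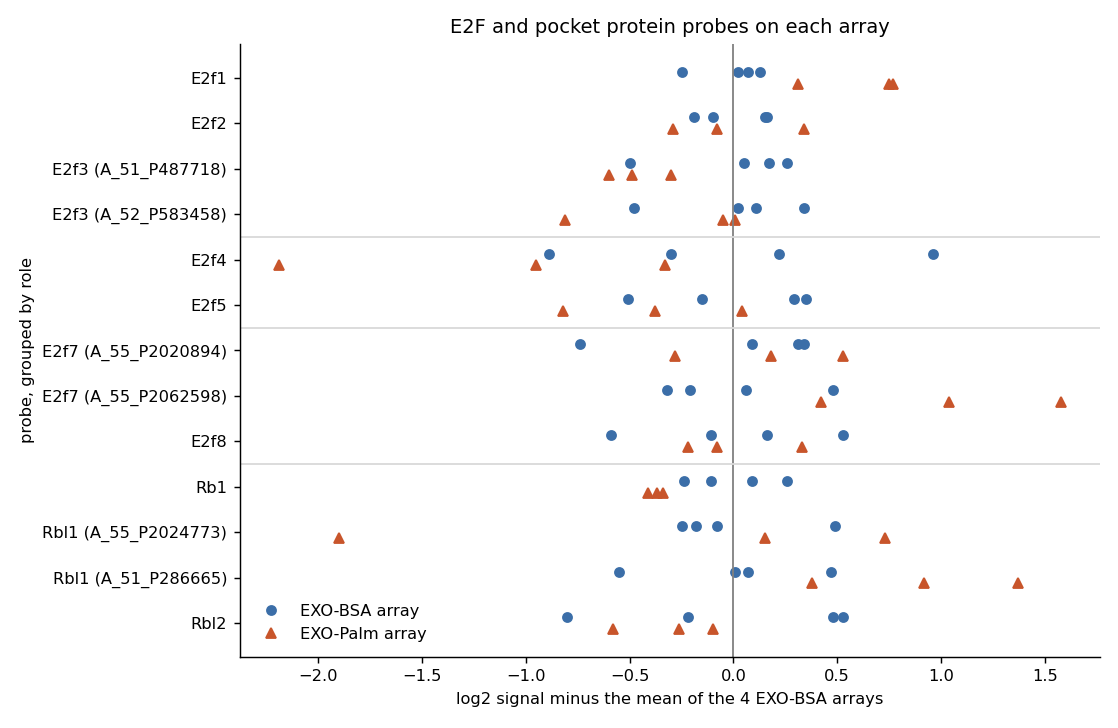
Each row is 1 probe, and the horizontal axis is its log2 signal on each array minus the mean of the 4 EXO-BSA arrays. Circles are EXO-BSA arrays and triangles are EXO-Palm arrays; the triangles lie to the right of every circle for E2f1 and to the left of every circle for Rb1, and overlap the circles in the other 11 rows.

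Of the activators, E2f1 had higher values with EXO-Palm but did not pass the test across all probes. E2F1 drives the entry into S phase and is itself known as an E2F target. Its probe (chr2:154385798-154385857 on mm9, minus strand, base 1977 of the transcript) gave -0.86, -1.24, -0.97 and -0.92 on EXO-BSA 1 to 4 and -0.68, -0.22 and -0.24 on EXO-Palm 1 to 3. Each EXO-Palm array was above each EXO-BSA array, with EXO-Palm 1 the nearest to them. The fitted log2 fold change was 0.61 ± 0.214 (SE), or 1.53-fold with a 95% interval of 1.09 to 2.15, and its limma adjusted p was 0.3789. An exact permutation test of all 35 partitions of the arrays gave a two-sided p of 0.0286, which is the smallest it can give. The difference was 0.37 on slide 1 and 0.67 on slide 3. With slide as a block it was 0.50 (limma adjusted p = 0.5975).

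E2f2, an activator best known from blood cells, had nearly the same mean in both groups. The values were 4.05, 3.71, 4.06 and 3.80 on EXO-BSA arrays and 3.61, 4.24 and 3.82 on EXO-Palm arrays (chr4:135750562-135750621 on mm9, plus strand). EXO-Palm 1 was the lowest and EXO-Palm 2 the highest of all 7 arrays, so that the groups overlapped fully. The fitted difference was -0.01, with a 95% interval of -0.53 to 0.50; as a fold the interval runs from 0.694 to 1.42.

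E2f3, the activator that also makes a shorter form from an internal promoter, was measured by 2 probes, and both fitted differences were negative. The probe A_51_P487718 lies at base 1214 of the transcript, and its aligned positions span 3387 bases (chr13:30005369-30008755 on mm9, minus strand), more than its 60 bases. It gave -2.06, -2.15, -2.82 and -2.27 with EXO-BSA and -2.62, -2.92 and -2.81 with EXO-Palm. EXO-BSA 3 lay among the EXO-Palm arrays. The other E2f3 probe, at base 5001 (chr13:29998480-29998539), gave 0.81, 0.49, 0.58 and -0.01 with EXO-BSA and 0.48, -0.34 and 0.42 with EXO-Palm. Here EXO-BSA 4 and EXO-Palm 2 were the lowest arrays. The fitted differences were -0.46 (95% interval -1.0 to 0.09, limma adjusted p = 0.5777) and -0.28 (-0.94 to 0.37, limma adjusted p = 0.7823), and the latter was 0.09 with slide as a block.

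Both repressors that work with pocket proteins had negative fitted differences. E2F4, which is abundant in resting cells and acts with RBL1 and RBL2, had a probe at chr8:107829156-107829215 (mm9, plus strand) with a GC content of 20.0%. Its values were -2.87, -2.13, -3.39 and -3.98 with EXO-BSA and -3.42, -5.28 and -4.04 with EXO-Palm. EXO-Palm 2 was far below the other arrays, with an intensity of 16.7 against 33.5 to 206.2 elsewhere, and 2 of the 3 EXO-Palm arrays were well above background. The fitted difference of -1.15 ± 0.525 was the lowest of the 13 probes, with a 95% interval of -2.35 to 0.04 and a limma adjusted p of 0.5134. It was -0.64 without EXO-Palm 2 and -0.55 with slide as a block, a fit that also sets EXO-Palm 2 aside. Slide 1 gave -0.92 and slide 3 gave -0.06.

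E2F5 is the closest relative of E2F4. Its probe (chr3:14605676-14605735 on mm9, plus strand) gave -1.61, -2.05, -2.41 and -1.55 with EXO-BSA and -1.86, -2.28 and -2.72 with EXO-Palm. EXO-Palm 3 was the lowest array and the other arrays of both groups were mixed. The difference of -0.38 had a 95% interval of -1.06 to 0.30 and a limma adjusted p of 0.7079. It was -0.03 on slide 1 and -1.17 on slide 3.

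The atypical repressors gave a different picture for each probe. E2F7 represses E2F1 and other E2F targets late in the cycle. The more distal of its 2 probes, A_55_P2062598 at base 5366 of the transcript (chr10:110224331-110224390 on mm9, plus strand), gave -2.45, -2.07, -1.65 and -2.34 with EXO-BSA and -1.09, -1.71 and -0.55 with EXO-Palm. EXO-Palm 1 and 3 were above every EXO-BSA array, and EXO-Palm 2 was just below EXO-BSA 3. The difference was 1.01 ± 0.320, or 2.01-fold with a 95% interval of 1.22 to 3.34, the highest fitted difference of the 13 probes. Its limma adjusted p was 0.3237, and the exact permutation p was 0.0857. The difference was 1.17 on slide 1, 1.79 on slide 3 and 1.44 with slide as a block (limma adjusted p = 0.1213), the lowest adjusted p of a probe of the family in any setting.

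The other E2f7 probe, A_55_P2020894 at base 2338 (chr10:110219255-110219314), gave -2.43, -2.21, -2.18 and -3.26 with EXO-BSA and -2.80, -1.99 and -2.34 with EXO-Palm. The groups overlapped, and the difference was 0.14 with a 95% interval of -0.60 to 0.88 (limma adjusted p = 0.9137). The sign was not stable, at -0.49 on slide 1 and 0.92 on slide 3. The 2 probes therefore gave different sizes for the same gene, and whether they read the same transcripts was not tested. This probe and the E2f3 probe at base 1214 are shown as examples of what the array measures, 60 bases each, as the scanner files print them.
E2f7: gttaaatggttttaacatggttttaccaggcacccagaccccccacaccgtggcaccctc
E2f3: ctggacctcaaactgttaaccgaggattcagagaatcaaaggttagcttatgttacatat
The distal probes of both genes are named by position only.

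E2f8, the partner of E2f7 in atypical repression, had nearly the same mean in both groups. Its probe (chr7:56121860-56121919 on mm9, minus strand) gave 0.90, 0.26, 0.53 and -0.22 with EXO-BSA and 0.15, 0.70 and 0.29 with EXO-Palm. All EXO-Palm arrays lay inside the range of the EXO-BSA arrays. The fitted difference was 0.01 with a 95% interval of -0.66 to 0.68, which as a fold runs from 0.633 to 1.61.

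Among the pocket proteins, Rb1 was slightly lower on every EXO-Palm array, without passing the test. RB1 is the retinoblastoma protein that binds the activator E2Fs. Its probe (chr14:73595408-73595467 on mm9, minus strand) is printed 10 times on each array, so that it is the most repeated measurement of the family. The means over the spots were 2.45, 2.08, 1.95 and 2.28 with EXO-BSA and 1.85, 1.78 and 1.82 with EXO-Palm. The EXO-Palm arrays lay close together (SD 0.04, n = 3) and below EXO-BSA 3, the lowest control. Spots within 1 array spread more widely, with an SD of 0.11 to 0.53. The fitted difference was -0.37 ± 0.202, or 0.773-fold with a 95% interval of 0.562 to 1.06, with a limma adjusted p of 0.5932 and an exact permutation p of 0.0571. It was -0.41 on slide 1, -0.45 on slide 3 and between -0.45 and -0.29 in all other settings.

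**Figure D2:**
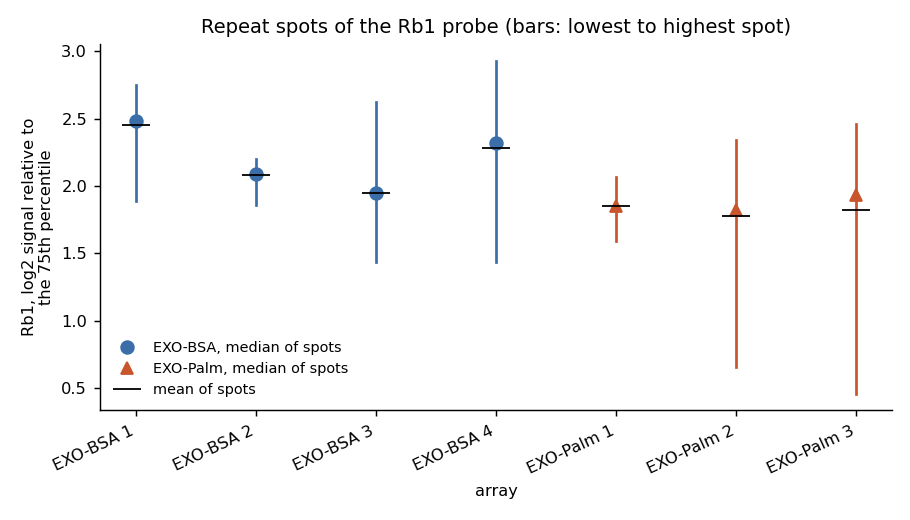
The vertical axis is the log2 signal of Rb1 relative to the 75th percentile of each of the 7 arrays, with a bar from the lowest to the highest spot, a symbol at the median and a line at the mean over 10 spots (9 on EXO-Palm 2). The medians were 1.95 to 2.48 on EXO-BSA arrays and 1.82 to 1.93 on EXO-Palm arrays, while the bars of all arrays overlap.

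RBL1, or p107, is a pocket protein that is typically found in dividing cells and whose gene is a known E2F target. Its probe for transcript variant 1, A_51_P286665 (chr2:156972143-156972202 on mm9, minus strand), gave -1.78, -2.80, -2.18 and -2.24 with EXO-BSA and -1.87, -0.88 and -1.33 with EXO-Palm. EXO-Palm 2 and 3 were above every EXO-BSA array, and EXO-Palm 1 was just below EXO-BSA 1. The difference was 0.89 ± 0.316, or 1.85-fold with a 95% interval of 1.12 to 3.04, with a limma adjusted p of 0.3967 and an exact permutation p of 0.0857. It was 0.41 on slide 1, 0.91 on slide 3 and 0.63 with slide as a block.

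The Rbl1 probe for transcript variant 2, A_55_P2024773 (chr2:157000761-157000820), was close to background. Its values were -4.57, -3.83, -4.40 and -4.50 with EXO-BSA and -3.59, -6.22 and -4.17 with EXO-Palm, and 5 of the 7 arrays were well above background. EXO-Palm 2 was again the array far below the rest, with an intensity of 8.7. The difference of -0.34 (95% interval -1.61 to 0.93, limma adjusted p = 0.8747) became 0.44 without that array, so that no direction can be given for this variant. It was 0.49 with slide as a block, a fit that also sets that array aside.

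RBL2, or p130, is the pocket protein of resting and differentiated cells. Its probe (chr8:93647120-93647179 on mm9, plus strand) gave -1.06, -1.01, -1.76 and -2.34 with EXO-BSA and -1.64, -2.12 and -1.80 with EXO-Palm. The EXO-Palm arrays lay inside the range of the EXO-BSA arrays, which spanned more than a doubling. The difference was -0.31 (95% interval -1.10 to 0.47, limma adjusted p = 0.80), with -0.61 on slide 1 and 0.53 on slide 3.

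**Figure D3:**
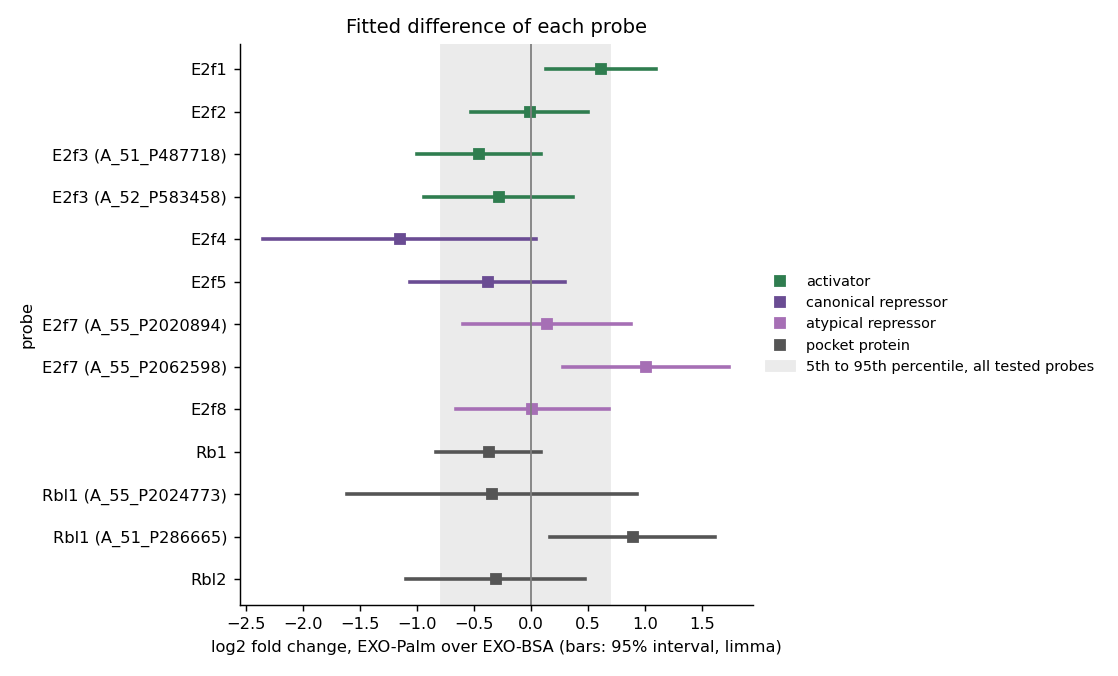
The horizontal axis is the fitted log2 fold change of EXO-Palm over EXO-BSA for each of the 13 probes, with bars for the 95% interval of the limma fit and colours for the roles. The grey band runs from -0.79 to 0.69, the 5th to 95th percentile of all tested probes; the intervals of E2f1, of the E2f7 probe A_55_P2062598 and of the Rbl1 probe A_51_P286665 lie above 0 and the other 10 hold 0.

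Activators were set against repressors with 1 probe a gene, the brighter where there were 2, as a description with no test. The median log2 fold change was -0.01 over the 3 activators and -0.19 over the 4 repressors, so that activators minus repressors was 0.17. All tested probes had a median of -0.02. Within the repressors the medians of the roles had opposite signs, at -0.77 for E2f4 and E2f5 and 0.51 for E2f7 and E2f8, while the pocket proteins had -0.31. Each repressor median lay between 2 unlike genes, E2f4 (-1.15) and E2f5 (-0.38), and E2f7 (1.01) and E2f8 (0.01). E2f8 changed its sign in 6 of 18 other settings, and the other E2f7 probe had 0.14. Array by array, activators minus repressors was -0.12, -0.16, 0.18 and 0.29 with EXO-BSA and 0.10, 0.36 and 0.40 with EXO-Palm. EXO-Palm 1 lay inside the EXO-BSA range, and 0.17 was less than the spread of the EXO-BSA arrays. With the probes restricted to those well above background on all arrays the value was -0.03. It was -0.06 with normexp and quantile normalisation of the median signals.

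Some members varied alike between arrays. Over the 7 arrays, which share the difference between the groups, Pearson's r of E2f1 was 0.96 with Rbl1, 0.62 with E2f7 and -0.83 with E2f4. These r used the brighter probe of a gene. EXO-Palm 2 was the highest and EXO-BSA 2 the lowest array of both E2f1 and the Rbl1 probe A_51_P286665. For E2f4 EXO-Palm 2 was the lowest array, with an intensity of 16.7, and it was also the lowest for the other Rbl1 probe, at -6.22. Rb1 had an r of 0.77 with E2f5 and -0.81 with E2f7. In each role the member with the largest fitted difference was set against all other named genes, and with only 7 arrays an r above 0.97 is reached by some of many genes. E2f1 was most like Hmga1 (r = 0.982), Tsen54 (0.981) and Pdxk (0.974). E2f7 was most like Pgf (0.984), Tinf2 (0.981) and Prim1 (0.981), E2f4 most like Esr2 (0.980), Slc5a9 (0.976) and Sox1 (0.972), and Rbl1 most like Cyhr1 (0.9895), Ccbl2 (0.982) and Zmat2 (0.981).

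The genes around the family were then read from lists, with 1 probe a gene. Among the dimerisation partners that E2F1 to E2F6 need to bind DNA, Tfdp1 was lower in every EXO-Palm array, at 0.59, 0.78 and 0.67 against 1.02 to 1.40, a difference of -0.52 (limma adjusted p = 0.4363). Tfdp2 had -0.35 and E2f6, a repressor independent of pocket proteins, had 0.27, and neither passed the test. Of the 11 tested cyclins, kinases and inhibitors that act on pocket proteins, 4 had a positive and 7 a negative difference, with a median of -0.07. Ccnd1, the cyclin D1 that starts phosphorylation of RB1, was the only 1 that passed. Its signal was -0.49, -0.45, -0.21 and 0.07 with EXO-BSA and 0.98, 1.53 and 2.01 with EXO-Palm, a rise of 1.77 ± 0.283 (limma adjusted p = 0.04214). The limma adjusted p of Ccnd1 was 0.05281 to 0.1573 when any 1 array was left out. It was 0.05978 with slide as a block and 0.2024 without a probe filter. Ccnd1 passed with the authors' processed values (0.02833), quantile normalisation (0.03777) and normexp with quantile normalisation (0.02972). It also passed with a random slide effect (0.0178), a trended, robust fit (0.01232) and probes well above background on all arrays (0.01316). Ccnd3, another D-type cyclin, was lower in every EXO-Palm array, at 5.48, 5.56 and 5.73 against 5.91 to 6.28. Its difference was -0.44 (limma adjusted p = 0.511). Ccne1, the cyclin E of late G1 and an E2F target, had 0.70 (limma adjusted p = 0.3341), and Cdkn1b, the inhibitor p27, had -0.61 (limma adjusted p = 0.4540), both without overlap of the groups. EXO-Palm 2 was the lowest array for Cdkn1b, at 0.48 against 1.19 and 1.31. The difference of Cdkn1b was -0.36 without that array and -0.31 with slide as a block, a fit that also sets it aside.

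RBL1 and RBL2 also join E2F4 in the DREAM complex, whose MuvB core changes partner to B-Myb and FoxM1 in dividing cells. Of 7 tested genes of the core and its partners, 4 were higher and 3 lower and none passed, with a median of 0.13. Foxm1 gave -2.29, -2.24, -1.96 and -2.41 with EXO-BSA and -1.03, -0.97 and 0.11 with EXO-Palm, a difference of 1.60 with a limma adjusted p of 0.08021. Foxm1 passed with probes well above background on all arrays (0.02946), with a random slide effect (0.04682) and with a trended, robust fit (0.03668). It did not pass in the other settings. Its limma adjusted p was 0.113 with the authors' processed values and 0.1098 with slide as a block. Mybl2, which encodes B-Myb, had 0.68, and the core gene Lin9 had -0.61, with no overlap of the groups for either. Among 9 corepressors of pocket proteins the median was 0.01 and none passed, and Kdm5a, a histone demethylase that binds RB1, had -1.36 with EXO-Palm 2 far below the rest at -2.61.

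Known target genes were read by the phase in which they act. Of 31 tested G1/S genes, which are classical E2F targets, 28 had a positive difference, as did 47.3% of all tested probes, with a median of 0.64. Of the 31, 15 had an unadjusted p under 0.05, all higher, against 4.85% of all tested probes, and none passed by limma after adjustment, with at most 2 passing in any other setting. Tk1 (thymidine kinase) had 2.13, with a limma adjusted p of 0.05348. This p was 0.01972 with the authors' processed values and 0.0319 with a random slide effect. It was 0.07049 with slide as a block and 0.2245 without a probe filter. Mcm5, of the replicative helicase, had 1.44, Gins1 had 1.27, Pole had 1.18 and Uhrf1 had 1.1, and the 3 negative values were Rrm1 (-0.23), Cdc25a (-0.08) and Lig1 (-0.08). Of 23 tested G2/M genes, which MuvB complexes are known to control, all 23 were higher without overlap of the groups (5.44% of all probes measured on every array), 16 rose past the threshold (0.533% of all tested probes in either direction), and the median was 2.31. Ttk, Cdc25c and Kif23 were well above background on 0, 2 and 2 of the 4 EXO-BSA arrays and were tested only because they were so with EXO-Palm, and Cdc25c and Kif23 are among the 16. With probes well above background on all arrays, 18 genes were tested, all 18 were higher with a median of 2.25, and 16 passed. Bub1b, Cenpa, Ccnb2, Ccnb1 and Cdc20, of the spindle checkpoint, centromere and mitotic cyclins, led them with 2.93, 2.86, 2.82, 2.76 and 2.76. The 16 became 9 or 10 without any 1 EXO-BSA array, 1 without EXO-Palm 1, 18 without EXO-Palm 2, 1 without EXO-Palm 3, and 0 without a probe filter or with the methods' t-test. All 23 were higher on slide 1 and on slide 3, as were 28 of the 30 G1/S genes measured there. The E2F and pocket protein probes had 4 of 13 positive differences on slide 1 and 9 of 13 on slide 3.

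**Figure D4:**
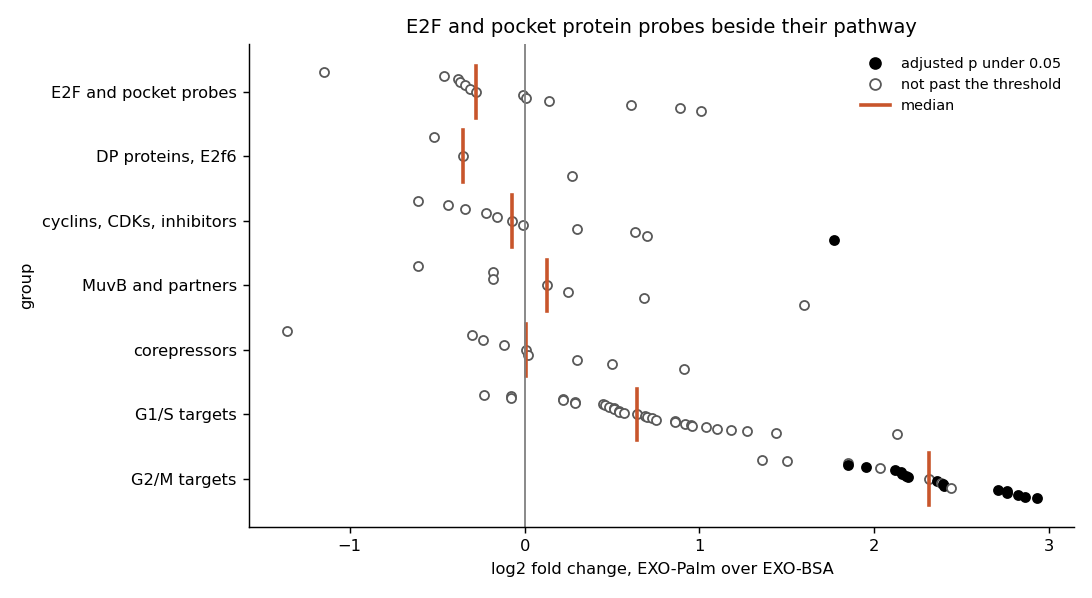
The horizontal axis is the fitted log2 fold change of EXO-Palm over EXO-BSA, with a row for the 13 E2F and pocket protein probes and a row for each list around them, filled points for an adjusted p under 0.05 and a bar at the median. The median lay at -0.28 over the 13 probes (-0.01 over the 11 well above background on all arrays, -0.03 with slide as a block and -0.39 to -0.06 with 1 array left out), 0.64 over the G1/S targets and 2.31 over the G2/M targets.

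The same windows were searched for the lists. E2F site letters were found in 13 of 30 G1/S genes (43.3%) and 1 of 20 G2/M genes (5%). The CHR element TTTGAA, through which MuvB complexes are known to bind, was found on either strand in 15 of 20 G2/M genes (75%), 4 of 30 G1/S genes (13.3%) and 20.2% of all genes. It was found in E2f2, E2f3, E2f8 and Rbl2, 4 of the 7 family genes. In E2f2 it lay in the further window and not in the window with the E2F letters. That further window begins with letters that read as E2F2 coding sequence, so this match is not read as that of a promoter. Of the 4 family genes with E2F letters, Rbl1 and E2f7 each had a probe with an unadjusted p under 0.05, and E2f2 and E2f3 had none. E2f1, with such a probe, had no match in its window. That window holds letters that read as E2F1 coding sequence, so it cannot show whether the E2f1 promoter has a match.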

How the data were processed

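RNA of 4 EXO-BSA and 3 EXO-Palm samples was measured on 1-colour arrays from 100 ng RNA. For each array the authors deposited the intensity from the scanner software, with background subtracted but arrays left on their own scale, and their own processed log2 values, used here as an alternative. The submitters' processing notes name Agilent Feature Extraction 9.1 and limma. Software versions in the files are 11.5.1.1 for EXO-BSA 3 and 10.7.3.1 for the others.

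Control spots and outlier-flagged spots were left out, log2 intensities were reduced by the 75th percentile of each array's 43020 non-control spots, and spots of a probe were averaged. No spot was saturated. Genes of EXO-BSA 3, whose file holds no gene names, were joined by probe name. A probe was tested where 75% or more of a group's arrays were well above background (21589 of 39429), with limma 3.58.1 in R 4.3.3 (jsonlite 2.0.0; data.table, version 1.17.8), a linear model on group, and Benjamini-Hochberg adjustment over all tested probes. The threshold was an adjusted p of 0.05, two-sided. Single probes also had an exact permutation test over 35 partitions. The number of arrays limits the precision.

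All probes of the family were named. From 9 lists, any gene of a list of up to 10 genes could be named, and from longer lists the 5 largest rises, the 5 largest falls and any gene that passed. Genes alike were the 3 with the highest r. The members and lists were chosen with earlier results of these data known. Probe positions are on mm9 and promoters on GRCm38.p6. There were 11 alternatives and 7 fits that each left out 1 array. The study's methods name limma for the arrays. They give Student's t-test for comparing means in general, and the alternative called the methods' t-test applies it to each probe.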

Additional observations from a re-analysis of the deposited data

Results flagged for a closer look

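A single EXO-BSA array stood far from the other 3 for 2 of the 119 probes examined, where chance alone gives about 5% of groups. Ezh2, a G1/S gene named for this reason after its values were seen, was -2.36 on EXO-BSA 4 against -0.85 to -0.57 on the others, and its difference of 0.75 was 0.35 without that array (limma adjusted p = 0.5861). The muscle marker Myh8 was 7.61 on EXO-BSA 1 against 7.21 to 7.25, and its difference of -0.65 was -0.55 without it (limma adjusted p = 0.5014). No probe of the E2F and pocket protein family had such an array.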

How the results depend on the processing

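No probe of the family passed the threshold in any of the 18 other settings, and E2f1, the E2f7 probe A_55_P2062598, the Rbl1 probe A_51_P286665, Rb1, Rbl2, E2f4, E2f5 and the E2f3 probe A_51_P487718 kept their direction in all settings in which they were tested. The direction of the other 5 probes, whose 95% intervals all hold 0, turned as follows, and the cause was not tested. E2f2 was 0.05 with quantile normalisation and -0.19 to 0.13 with 1 array left out. E2f8 was -0.05 with the median in place of the 75th percentile, -0.03 with slide as a block, -0.18 with the replicate block and -0.18 to 0.19 with 1 array left out. The E2f7 probe A_55_P2020894 was -0.13 with normexp and quantile normalisation, -0.16 with the authors' processed values, -0.10 with the replicate block and -0.10 to 0.36 with 1 array left out. With slide as a block the E2f3 probe A_52_P583458 was 0.09 and the Rbl1 probe A_55_P2024773 was 0.49, the latter being -0.87 to 0.44 with 1 array left out.

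Activators minus repressors was -0.06 with normexp and quantile normalisation and -0.03 with probes well above background on all arrays, and 0.08 to 0.36 with 1 array left out. Of the 115 probes past the threshold 100 were higher and 15 lower, and with normexp and quantile normalisation 97 were higher and 31 lower. The 115 became 0 without a probe filter, 0 with the methods' t-test, 181 with slide as a random block, 173 with a trended and robust fit and 4 to 228 with 1 array left out. The 17 genes of the pathway lists past it became 0 without a probe filter, 0 with the methods' t-test and 1 to 19 with 1 array left out. At an unadjusted p under 0.05 the methods' t-test gave 2107 probes and the fit without a filter 1900.

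Deviations from the group mean had r of 0.12, -0.15 and -0.15 between arrays of the same replicate number. The highest r was 0.31, for EXO-BSA 2 and EXO-Palm 1, which share slide 1. Since slides add to such r, they cannot tell whether samples of the same number were handled together. With the replicate block 0 of 21589 probes, 0 of 13 probes of the family and 0 listed genes passed by limma, and 1933 probes had an unadjusted p under 0.05, of which 1 higher and 1 lower were of the family. Normexp was run on median signals, chosen after seeing the data, because 1 file has no mean signal. The version on mean signals was not run. Signal near background limits E2f4 and the Rbl1 probe A_55_P2024773.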
